A study of Mus musculus with 13 samples.

Results

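The genes of glycogen metabolism were followed in gastrocnemius muscle of obese mice given semaglutide, a glucagon-like peptide-1 receptor agonist, with or without a ketone ester. The 9 genes were chosen by symbol for their place in the pathway, with earlier results of these data known. All 9 were found among the 21868 genes of the deposited table of normalized counts. They are Pygm, Phka1 and Phkg1, which serve glycogen breakdown, Ugp2, Gyg, Gys1 and Gbe1, which serve its synthesis, and Ppp1r3a and Ppp1r3c, which bring a phosphatase to the glycogen particle. All 9 passed the filter on low values, a mean normalized count of at least 10 over the 13 mice, as did 12303 genes in all.

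The mice were C57BL/6 males that entered the study at 7 weeks of age, had 1 week of acclimatization, received a diet with 60 kcal% fat for 15 to 17 weeks and were then returned to chow. For the last 3 weeks, 5 mice (numbered 1 to 5) received phosphate-buffered saline as vehicle, 5 mice (13 to 17) received semaglutide at 30 nM/kg per day by intraperitoneal injection, and 3 mice (19, 21 and 22) received the same semaglutide and drank water that held ketone ester at 0.114 g/mL. The sequenced mice were of the C57BL/6N substrain, per the description in the study. By the labels, the vehicle and the semaglutide group also had placebo in place of the ketone ester. Diet-induced obesity and the return to chow were therefore shared by all 3 groups, there was no lean group, and no mouse received ketone ester without semaglutide. RNA came from whole frozen muscle, 1 library per mouse, and between 15319471 and 23498162 reads per mouse were counted on genes. In a whole-muscle sample, fewer cells of a type and less RNA per cell cannot be told apart. Semaglutide mouse 13 stood apart from the other 4 mice of its group and lay close to the vehicle-treated mice in most genes described here, so the main results are also given without it.

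Skeletal muscle stores glucose as glycogen, a branched polymer built on the protein glycogenin. UDP-glucose, made by UDP-glucose pyrophosphorylase, is added to the growing chains by glycogen synthase, and the branching enzyme introduces the side chains. Glycogen phosphorylase releases glucose-1-phosphate from the chain ends when muscle contracts or when adrenaline acts, after phosphorylase kinase has activated it. Protein phosphatase 1, held on the particle by glycogen-targeting subunits, does the opposite: it switches phosphorylase off and the synthase on.

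In total 5 of the 9 genes differed between semaglutide and vehicle, 2 of them higher and 3 lower. A gene is said to differ, rise or fall where its p in limma, adjusted over all genes tested, was under 0.05. That is 55.6% of the members, against 26.5% of all genes tested, of which 12.5% were higher and 13.9% lower. The 2 phosphorylase kinase subunits and Ppp1r3c fell, and Ugp2 and Gyg rose. Between semaglutide + ketone ester and semaglutide, 4 of the 9 differed against a background of 20.7%, with Phka1 and Phkg1 higher (10.0% of all genes) and Ugp2 and Gyg lower (10.7% of all genes). None of the 9 differed between semaglutide + ketone ester and vehicle in limma, where 0.366% of all genes did, nor did any with edgeR or DESeq2 on the recovered reads. In that comparison 1 member, Ppp1r3c, had an unadjusted p under 0.05, as did 10.4% of all genes. The comparisons of semaglutide with vehicle and of semaglutide + ketone ester with semaglutide use the same 5 semaglutide-treated mice. Without mouse 13 the numbers of members called were 6, 5 and 0, against 37.5%, 33.5% and 1.07% of all genes.

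**Figure D1:**
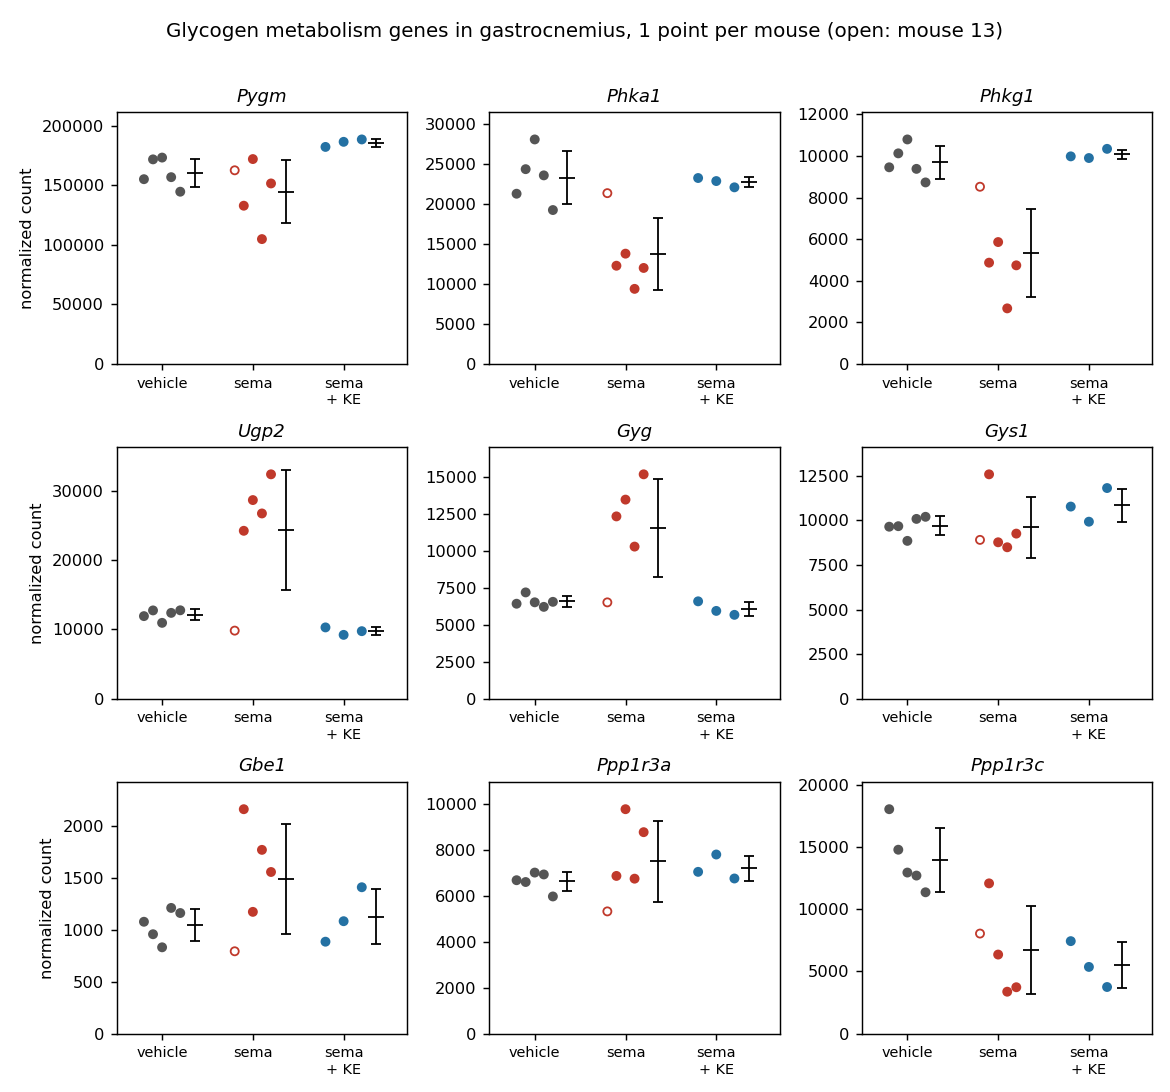
Normalized counts for the 9 genes, with 1 point per mouse in vehicle, semaglutide (sema) and semaglutide + ketone ester (sema + KE) groups, and the mean ± SD as a bar beside each group. The open symbol is semaglutide mouse 13, which sits in or just below the vehicle range for Phka1, Phkg1, Ugp2 and Gyg, while in Ppp1r3c all 3 semaglutide + ketone ester-treated mice lie below every vehicle-treated mouse.

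Levels were compared between genes per kilobase of the principal spliced transcript. In vehicle-treated mice Pygm stood far above the others with 55765 ± 4204 normalized counts per kb (SD, n = 5). Ppp1r3c followed with 5123 ± 947, then Ugp2 with 4532 ± 281, Phkg1 with 4083 ± 332, Gyg with 3872 ± 215 and Phka1 with 3815 ± 546 normalized counts per kb. Within this middle group, no gene differed from its neighbour in the order by more than the sum of their SDs. Gys1 was lower, at 2636 ± 144 per kb, followed by Ppp1r3a at 956 ± 59 and Gbe1 at 368 ± 54, each of them separated from its neighbours by more than the SDs. Under semaglutide the order after Pygm was Ugp2 (9082 ± 3224 per kb), Gyg (6796 ± 1957), Gys1 (2612 ± 459), Ppp1r3c (2465 ± 1306), Phka1 (2253 ± 741) and Phkg1 (2246 ± 895), and the last 4 of these lay within each other's SDs. With the ketone ester, Phka1 (3721 ± 97 per kb, SD, n = 3) stood again with Ugp2 (3638 ± 200) and Gyg (3570 ± 276). Phkg1 (4242 ± 99) was above each of these by more than the sum of the SDs. Ppp1r3c (2025 ± 677) was below Gys1 (2947 ± 257), though by less than the sum of their SDs.

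The isoenzymes that dominate in other tissues were low in this muscle. In vehicle-treated mice the brain phosphorylase Pygb had 30.0 ± 3.4 normalized counts per kb, the liver phosphorylase Pygl 13.0 ± 4.1, the second catalytic phosphorylase kinase subunit Phkg2 74.0 ± 5.4 and the liver-type alpha subunit Phka2 34.6 ± 4.8 (SD, n = 5). Gys2, the liver glycogen synthase, had between 1 and 41 reads per mouse under vehicle, 0 to 11 under semaglutide and 2 to 6 with the ketone ester. It did not reach the mean of 10, and with 3 of 5 semaglutide-treated mice at 0 reads no fold change is given.

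**Figure D2:**
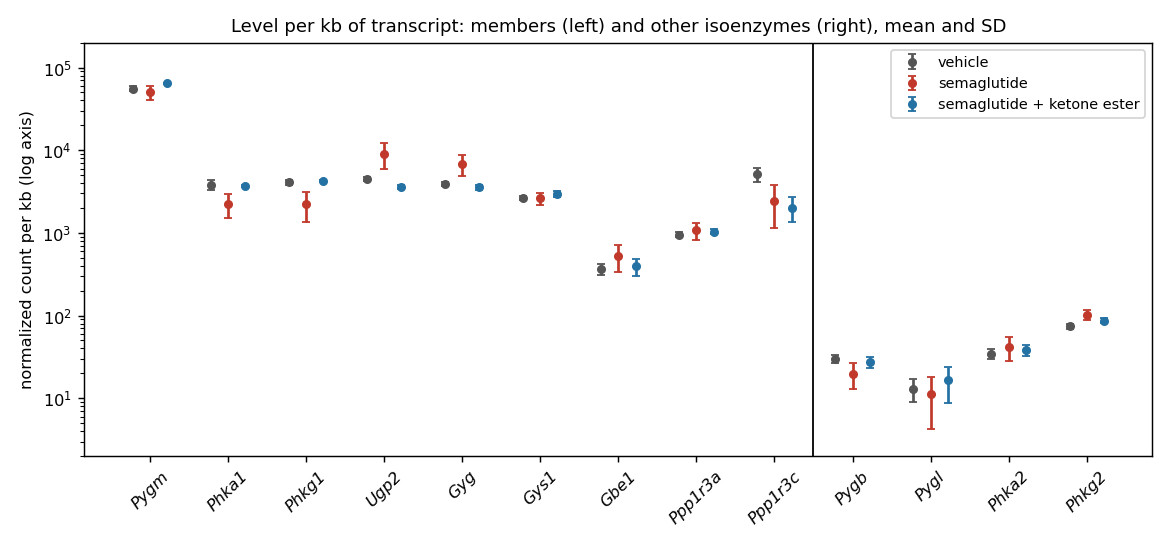
Mean and SD of normalized counts per kb of principal transcript, on a log axis, for the 9 genes (left of the line) and 4 other isoenzymes (right), by group. Pygm is the highest in each group, and the other isoenzymes lie below every member; Gys2 is left out because several mice had 0 reads.

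Pygm encodes muscle glycogen phosphorylase, the enzyme that is lost in McArdle disease, and lies at chr19:6384399-6398459 on the plus strand (GRCm38, GENCODE M21), with 20 exons in its principal transcript. Normalized counts of Pygm in vehicle-treated mice 1 to 5 were 155083, 171709, 173209, 156770 and 144572. In semaglutide-treated mice 13 to 17 they were 162531, 132816, 171965, 104804 and 151501. In mice 19, 21 and 22, which also received ketone ester, they were 182152, 186431 and 188432, above every mouse of both other groups. The semaglutide group overlapped the vehicle group, with mouse 16 the lowest, and the log2 difference was -0.17 (SE 0.15, limma adjusted p = 0.45). Although the semaglutide + ketone ester group did not overlap the others, its log2 difference was 0.38 from semaglutide (SE 0.17, adjusted p = 0.14) and 0.22 from vehicle (SE 0.17, adjusted p = 0.76). The first of these passed the threshold with DESeq2 (adjusted p = 0.034), and over all alternatives its adjusted p ranged from 0.034 to 0.84. Rescaling the columns to equal totals or to equal quantiles turned the sign of the difference between semaglutide and vehicle (0.0088 and 0.062), and quantile normalization that of the ketone ester against semaglutide (-0.041). No direction is therefore given for Pygm.

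Phosphorylase kinase is a large complex in which the gamma subunit carries the catalytic site, the alpha and beta subunits are regulatory and phosphorylated by protein kinase A, and calmodulin is built in as the calcium sensor. Phka1, the muscle alpha subunit, lies at chrX:102513975-102644246 and Phkg1, the muscle gamma subunit, at chr5:129863421-129898549, both on the minus strand. The annotated span of Phkg1 overlaps Chchd2, Sumf2 and Zbed5, and it is not given in the sources used here how reads in such overlaps were counted. Normalized counts of Phka1 in vehicle-treated mice 1 to 5 were 21304, 24377, 28097, 23601 and 19262. Under semaglutide they were 21376 in mouse 13, and 12294, 13804, 9399 and 12015 in mice 14 to 17. In all 4 of these mice Phka1 lay below every vehicle-treated mouse, and mouse 13 lay within the vehicle range. With the ketone ester the values were 23270, 22889 and 22104, again within the vehicle range and above all semaglutide-treated mice. Phka1 fell under semaglutide to 0.573-fold of vehicle, a log2 difference of -0.80 (SE 0.17, limma adjusted p = 0.0045), or -0.98 without mouse 13. Addition of ketone ester gave a level 1.72-fold that of semaglutide (log2 0.78, SE 0.20, adjusted p = 0.015).

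Phkg1 followed the same pattern. Its normalized counts were 9452, 10122, 10791, 9377 and 8725 in vehicle-treated mice 1 to 5. They were 8517, 4868, 5860, 2672 and 4740 in semaglutide-treated mice 13 to 17, so that even mouse 13 lay just below the lowest vehicle-treated mouse. In mice 19, 21 and 22 they were 9978, 9898 and 10339. Phkg1 was the only member whose vehicle and semaglutide groups did not overlap, against 14.7% of all genes, and its log2 difference was -0.96 (SE 0.21, limma adjusted p = 0.0055), a level 0.516-fold that of vehicle. The difference between semaglutide + ketone ester and semaglutide was 1.01 (SE 0.25, adjusted p = 0.011), 2.02-fold. Against vehicle, the semaglutide + ketone ester group differed by -0.02 in Phka1 (95% confidence interval -0.46 to 0.41) and by 0.06 in Phkg1 (-0.47 to 0.59) on the log2 scale, intervals that leave room for a change of some size in either direction. The ketone ester calls for both genes rested on 3 mice. Leaving out mouse 22 gave an adjusted p of 0.053 for Phka1 and 0.051 for Phkg1, leaving out mouse 21 gave 0.058 for Phka1, and fitting only the 2 groups compared gave 0.056 for both, with log2 differences between 0.77 and 1.01 in these fits. Over all alternatives the adjusted p ranged from 0.00015 to 0.058 for Phka1 and from 0.00019 to 0.056 for Phkg1.

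Across the 13 mice, the log2 profiles of Phka1 and Phkg1 were the closest among all pairs of the 9 genes, with a root mean square difference of 0.17 after centring, while their own SDs over the mice were 0.47 and 0.59. Because the genes moved together, the 250 bases before each RefSeq start (GRCm38.p6) are shown, both on the minus strand and written 5′ to 3′, at chrX:102644247-102644496 for Phka1 and chr5:129879089-129879338 for Phkg1. The Phka1 window lies directly before the GENCODE span of the gene. The Phkg1 window lies inside the GENCODE span of Phkg1, which begins further upstream than this RefSeq start. Capitals mark matches to CANNTG, the E-box that MyoD-family and other basic helix-loop-helix factors bind. They also mark CTA and TAG with 4 bases of any kind between them, a loose form of the core of the MEF2 site. Both motifs read the same on the 2 strands.
Phka1: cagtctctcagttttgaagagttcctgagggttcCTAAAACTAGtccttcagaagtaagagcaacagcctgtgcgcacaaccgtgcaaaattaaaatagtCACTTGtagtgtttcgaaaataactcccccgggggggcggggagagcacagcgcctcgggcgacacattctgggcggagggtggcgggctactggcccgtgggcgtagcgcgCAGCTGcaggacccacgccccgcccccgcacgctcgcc
Phkg1: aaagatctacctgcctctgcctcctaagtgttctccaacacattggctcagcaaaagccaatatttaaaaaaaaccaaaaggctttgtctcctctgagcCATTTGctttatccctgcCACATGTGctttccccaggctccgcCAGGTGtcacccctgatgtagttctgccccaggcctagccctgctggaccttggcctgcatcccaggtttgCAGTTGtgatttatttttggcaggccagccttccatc
The Phkg1 window holds 5 E-box matches, 2 of which overlap each other, and the Phka1 window holds 2. A match to the loose MEF2 form stands in the Phka1 window (CTAAAACTAG) and not in that of Phkg1. An E-box was found in 66.2% and the loose MEF2 form in 3.2% of the 32851 promoter windows of the same length, so that only the latter is uncommon. Of the other members, only Ppp1r3a had a match to the loose MEF2 form (CTATTTATAG). These matches are letters in a window and were not tested as binding sites.

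Of the other phosphorylase kinase genes, the beta subunit Phkb had a mean of 10336 ± 1102 normalized counts under vehicle and 9407 ± 1887 under semaglutide, and the difference did not pass the test (log2 -0.15, limma adjusted p = 0.40). Phkg2, at a much lower level, rose under semaglutide, from 126 to 153 normalized counts in vehicle-treated mice to 145 to 212, a log2 difference of 0.45 (adjusted p = 0.0084). Phka2 differed by 0.22 (adjusted p = 0.42). Calm2 and Calm3, which encode calmodulin, fell with log2 differences of -0.80 (adjusted p = 0.020) and -0.82 (adjusted p = 0.034). Calm2 was higher with the ketone ester than under semaglutide (0.91, adjusted p = 0.027). Calmodulin genes serve many other pathways, and their counts are uncertain as far as near-identical copies share reads.

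The synthetic genes Ugp2 and Gyg changed in the other direction. Ugp2, which encodes UDP-glucose pyrophosphorylase, lies at chr11:21321138-21371201 on the minus strand and overlaps the antisense gene Gm12043. Its normalized counts were 11928, 12750, 10958, 12395 and 12768 in vehicle-treated mice 1 to 5. Under semaglutide they were 9836 in mouse 13, and 24230, 28660, 26730 and 32372 in mice 14 to 17. The latter 4 were far above every vehicle-treated mouse, and mouse 13 was below all of them. With the ketone ester the values were 10301, 9226 and 9759, lower than in any vehicle-treated mouse. The rise under semaglutide was 1.86-fold (log2 0.90, SE 0.24, limma adjusted p = 0.014) and the log2 difference was 1.20 without mouse 13. From semaglutide to semaglutide + ketone ester Ugp2 was lower by a log2 difference of -1.21 (SE 0.28, adjusted p = 0.0084), or 0.431-fold. The difference of -0.32 between semaglutide + ketone ester and vehicle (95% confidence interval -0.91 to 0.28) did not pass the test (adjusted p = 0.78), and without mouse 13 in the fit its adjusted p was 0.16, within a range from 0.054 to 0.98 over all alternatives.

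Gyg encodes glycogenin, the self-glucosylating primer of the particle, and lies at chr3:20122084-20155317 on the minus strand. Normalized counts of Gyg were 6420, 7184, 6515, 6208 and 6547 in vehicle-treated mice 1 to 5, and 6511, 12313, 13445, 10275 and 15153 in semaglutide-treated mice 13 to 17. In mice 19, 21 and 22 they were 6582, 5935 and 5670. As with Ugp2, mice 14 to 17 lay above all vehicle-treated mice. For Gyg, mouse 13 lay among the vehicle-treated mice, and the ketone ester group was within or below their range. Gyg was 1.69-fold higher under semaglutide (log2 0.76, SE 0.17, limma adjusted p = 0.0063, 0.95 without mouse 13) and lower by a log2 difference of -0.87 with the ketone ester than under semaglutide (SE 0.20, adjusted p = 0.0083). Against vehicle, the semaglutide + ketone ester group differed by -0.12 (95% confidence interval -0.55 to 0.31).

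The profiles of Ugp2 and Gyg were the next closest pair of members, with a root mean square difference of 0.21 on the log2 scale. The windows of 250 bases before their RefSeq starts, both on the minus strand of GRCm38.p6, are at chr11:21371268-21371517 for Ugp2, the more upstream of 2 starts in RefSeq, and at chr3:20155117-20155366 for Gyg. Most of the Gyg window lies inside the GENCODE span of Gyg, which begins further upstream than the RefSeq start. Capitals again mark CANNTG.
Ugp2: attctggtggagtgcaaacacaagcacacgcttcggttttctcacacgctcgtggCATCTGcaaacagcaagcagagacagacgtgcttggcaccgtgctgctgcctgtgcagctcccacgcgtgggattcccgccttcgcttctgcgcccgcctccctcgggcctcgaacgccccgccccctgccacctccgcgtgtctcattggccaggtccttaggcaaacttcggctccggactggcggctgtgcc
Gyg: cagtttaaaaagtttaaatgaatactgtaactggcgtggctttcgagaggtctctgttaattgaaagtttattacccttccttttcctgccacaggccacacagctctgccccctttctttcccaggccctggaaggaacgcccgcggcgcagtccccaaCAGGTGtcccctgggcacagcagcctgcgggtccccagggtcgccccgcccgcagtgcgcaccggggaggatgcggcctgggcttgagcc
Each window holds a single E-box and no match to the loose MEF2 form. With 64.0% and 59.6% G and C both are richer in these bases than the median of all windows, 52.4%. E-boxes were present in all 10 windows of the 9 members. The letters AAGGTCA (the half-site of estrogen-related receptors), TGTTTAC (a forkhead site) and TGACGTCA (the cyclic AMP response element), each searched on both strands, were in none of the 10, and they were in 4.08%, 3.17% and 1.55% of all windows.

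**Figure D3:**
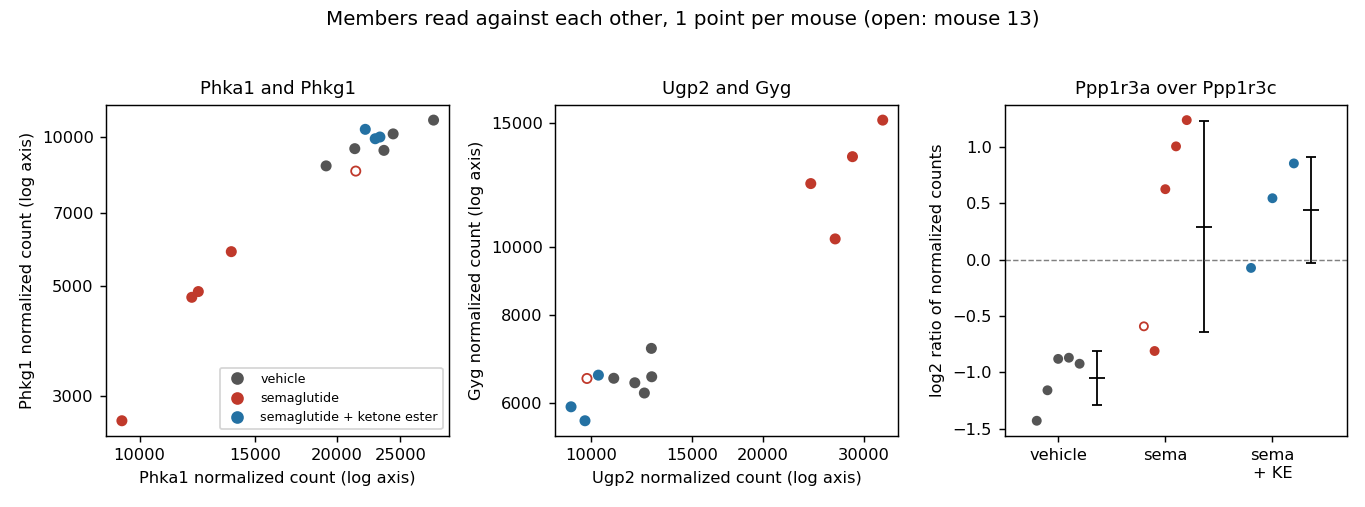
Normalized counts of Phkg1 against Phka1 and of Gyg against Ugp2 on log axes, and the log2 ratio of Ppp1r3a to Ppp1r3c with mean ± SD, with 1 point per mouse (open symbol, semaglutide mouse 13). Semaglutide mice 14 to 17 lie apart at the low end of the phosphorylase kinase pair and the high end of the Ugp2 and Gyg pair, and the ratio is above that of every vehicle-treated mouse in all 3 semaglutide + ketone ester-treated mice.

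Gys1, muscle glycogen synthase, did not pass the test in any of the 3 comparisons. It lies at chr7:45434844-45456619 on the plus strand and overlaps Ruvbl2 on the other strand. Normalized counts were 9649, 9678, 8855, 10086 and 10204 in vehicle-treated mice, 8910, 12585, 8775, 8496 and 9261 in semaglutide-treated mice 13 to 17, and 10777, 9929 and 11815 with the ketone ester. Apart from mouse 14, all semaglutide values fell between 8496 and 9261. The log2 differences were -0.03 for semaglutide against vehicle (SE 0.11, limma adjusted p = 0.88) and 0.19 for the ketone ester against semaglutide (SE 0.12, adjusted p = 0.30), which became 0.29 without mouse 14 (adjusted p = 0.048, within a range from 0.048 to 0.77 over all alternatives). The sign of the first of them turned under both rescalings (0.15 with equal totals, 0.033 with equal quantiles), and that of the latter with equal totals (-0.051).

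Gbe1, the branching enzyme, at chr16:70313949-70569716 on the plus strand, had the lowest counts of the 9 genes. They were 1076, 956, 830, 1209 and 1160 under vehicle, 792, 2157, 1171, 1766 and 1554 in semaglutide-treated mice 13 to 17, and 884, 1081 and 1407 with the ketone ester. In 3 of the 5 semaglutide-treated mice Gbe1 was above all vehicle-treated mice, and in mouse 13 it was below them. The log2 difference of 0.44 (SE 0.22, limma adjusted p = 0.16) did not pass the test over all mice and did without mouse 13 (0.65, adjusted p = 0.0081, within a range from 0.0081 to 0.35 over all alternatives). Between semaglutide + ketone ester and semaglutide the values were -0.35 (adjusted p = 0.36) and, without mouse 13, -0.56 (adjusted p = 0.039, range 0.039 to 0.71).

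Ppp1r3a and Ppp1r3c encode glycogen-targeting subunits of protein phosphatase 1. The former (also called RGL or GM) is the striated muscle form, and the latter (also called PTG or R5) is found in many tissues. Ppp1r3a lies at chr6:14713977-14755274 and Ppp1r3c at chr19:36731731-36736653, both on the minus strand. Ppp1r3c had the widest spread of the 9 genes, with an SD of 0.79 on the log2 scale over the 13 mice. In vehicle-treated mice its normalized counts were 18028, 14775, 12942, 12700 and 11358. Under semaglutide they were 8043 in mouse 13, 12073 in mouse 14, and 6357, 3375 and 3733 in mice 15 to 17. With the ketone ester they were 7434, 5364 and 3752. Mouse 14 alone of the semaglutide group reached the vehicle range, and mouse 13 did not, unlike in Phka1 and Gyg. All 3 mice given ketone ester were below all 5 vehicle-treated mice and inside the range of the semaglutide group.

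Ppp1r3c fell under semaglutide to 0.435-fold of vehicle, a log2 difference of -1.20 (SE 0.30, limma adjusted p = 0.010), and the call was kept with each of the 13 mice left out in turn (-1.45 to -0.99). It differed from the other 4 members called in that comparison in its level with the ketone ester. Semaglutide + ketone ester differed from semaglutide by only -0.18 (95% confidence interval -0.92 to 0.57, adjusted p = 0.76), and from vehicle by -1.38 (95% confidence interval -2.12 to -0.63), 0.385-fold. The adjusted p of the latter was 0.12, so it did not pass the threshold over all genes, but it did when each mouse was weighted by its own variance (0.014) and when only those 2 groups were fitted (0.0068), and over all alternatives it ranged from 0.0068 to 0.50. Groups did not overlap between semaglutide + ketone ester and vehicle in 3 members, Pygm, Ugp2 and Ppp1r3c, against 11.3% of all genes. Between semaglutide + ketone ester and semaglutide they did not overlap in Pygm, Phka1 and Phkg1, against 20.1% of all genes.

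Since Ppp1r3c stood apart from the other members, its window of 250 bases before the RefSeq start is also given, at chr19:36736605-36736854 on the minus strand of GRCm38.p6, with CANNTG in capitals.
Ppp1r3c: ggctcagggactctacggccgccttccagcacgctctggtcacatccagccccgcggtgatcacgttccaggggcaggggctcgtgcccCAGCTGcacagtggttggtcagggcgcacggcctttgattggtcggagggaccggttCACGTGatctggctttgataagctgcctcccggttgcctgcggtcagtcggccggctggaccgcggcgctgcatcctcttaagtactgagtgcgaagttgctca
One of its 2 E-boxes is the palindrome CACGTG, the core of the site that TFEB and TFE3 bind. No other member window holds this palindrome, which is in 6.02% of all windows. The match was not tested as a binding site, and its part in the level of Ppp1r3c was not tested.

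Ppp1r3a had normalized counts of 6696, 6618, 7029, 6948 and 5988 under vehicle, 5336, 6883, 9794, 6764 and 8792 in semaglutide-treated mice 13 to 17, and 7061, 7818 and 6772 with the ketone ester. The semaglutide values spread to both sides of the vehicle range, and the log2 difference was 0.14 (SE 0.13, limma adjusted p = 0.46). With sample weights it was 0.32 and passed the test (adjusted p = 0.026, within a range from 0.026 to 0.84 over all alternatives). As a description, the log2 ratio of Ppp1r3a to Ppp1r3c was -1.05 ± 0.24 (SD, n = 5) in vehicle-treated mice, with a range from -1.43 to -0.87. It was 0.29 ± 0.94 (SD, n = 5) under semaglutide, from -0.81 to 1.24, and 0.44 ± 0.47 (SD, n = 3) with the ketone ester, from -0.07 to 0.85. The log2 ratio of Pygm to Gys1, the 2 enzymes that remove and add glucose units, was 4.05 ± 0.18, 3.91 ± 0.38 and 4.10 ± 0.12 in the same groups. These ratios are of counts and carry the lengths of the transcripts.

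**Figure D4:**
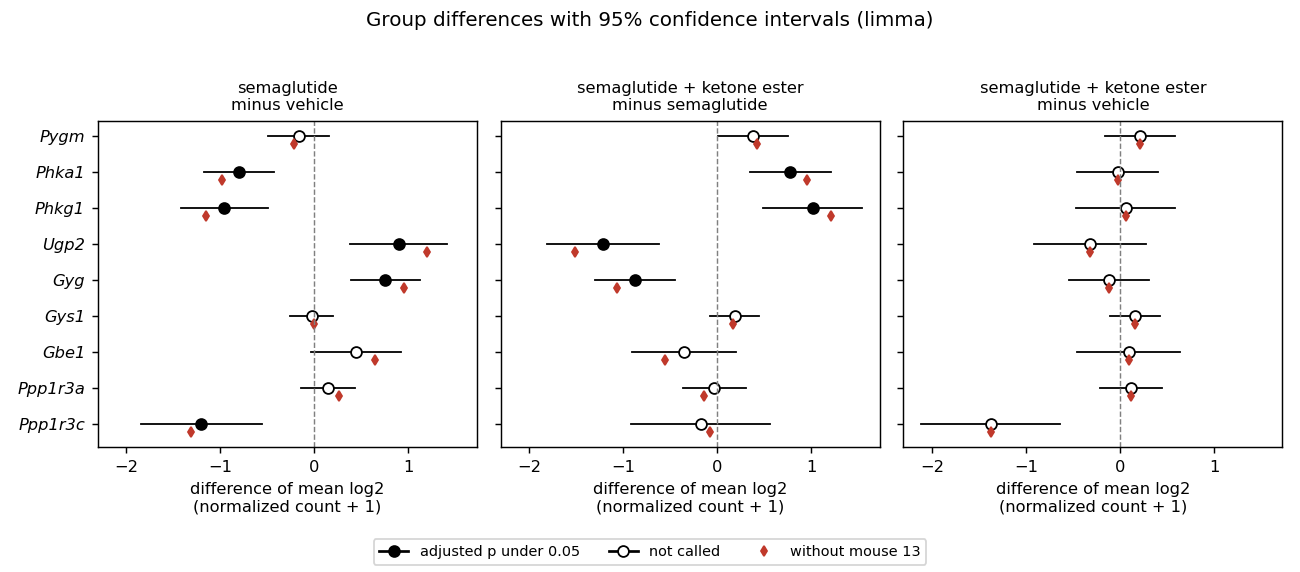
Differences of mean log2(normalized count + 1) between groups with 95% confidence intervals from limma, for the 9 genes in 3 comparisons. Filled circles passed an adjusted p of 0.05, open circles did not, and diamonds give the estimate without mouse 13; Phka1, Phkg1, Ugp2 and Gyg lie on opposite sides of 0 in the left and middle panels, which share the semaglutide-treated mice, and Ppp1r3c lies at -1.20 and -1.38 in the left and right panels.

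The wider pathway was read from a list of 34 other genes of glycogen metabolism and its control, of which 32 passed the filter. Under semaglutide 11 of the 32 differed from vehicle, 34.4%, against 26.5% of all genes, with 3 higher and 8 lower. Scaling every library to the same total moved the median of all genes to 0.17 on the log2 scale, and 12 genes of the list were then called, 8 higher and 4 lower. Of all genes, 35.2% were called under that scaling, 3351 higher and 985 lower. As deposited, the median log2 difference of the list was -0.01, and that of all genes tested was -0.0029. With the ketone ester, 8 of 32 differed from semaglutide, 25% against 20.7% of all genes, 5 higher and 3 lower. With the same scaling the median of all genes was -0.24, and 11 genes of the list were called, 3 higher and 8 lower. That was against 35.4% of all genes, 637 higher and 3715 lower. None of the list differed between semaglutide + ketone ester and vehicle in limma, where 0.366% of all genes did, or in edgeR or DESeq2. In limma 2 of the list had an unadjusted p under 0.05, as did 10.4% of all genes. Without mouse 13 the numbers called in the 3 comparisons were 15, 12 and 0, against 37.5%, 33.5% and 1.07% of all genes. Of the 11 genes that differed under semaglutide, 6 kept the call with each mouse left out in turn, namely Phkg2, Pgm1, Gaa, Prkab2, Prkag2 and Epm2a. In these fits Prkag3 passed only with all mice or without mouse 13, and Pygb, Calm2, Calm3 and Prkaa2 each lost the call without at least 3 different mice. Among the genes named below that differed between semaglutide + ketone ester and semaglutide, Gaa alone kept the call with every mouse left out.

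Pgm1, a phosphoglucomutase, interconverts glucose-1-phosphate and glucose-6-phosphate and so stands between both directions of the pathway and glycolysis. The symbols Pgm1 and Pgm2 were exchanged between 2 mouse genes in older annotations, and the values are given under the symbol of the deposited table. Normalized counts of Pgm1 lay between 19296 and 29386 under vehicle, at 26270 in semaglutide mouse 13 and between 6677 and 12140 in the other 4 mice, and between 23036 and 24789 with the ketone ester. It fell under semaglutide by 1.05 on the log2 scale (limma adjusted p = 0.010) and was higher by 1.02 with the ketone ester (adjusted p = 0.030). Gaa, the lysosomal acid alpha-glucosidase that is lost in Pompe disease, went the other way. Its range was 5867 to 6924 under vehicle, 11790 to 13627 in semaglutide mice 14 to 17, 6607 in mouse 13, and 5288 to 7142 with the ketone ester, with log2 differences of 0.78 (adjusted p = 0.0036) and -0.87 (adjusted p = 0.0060). Pygb fell by 0.64 on the log2 scale under semaglutide (adjusted p = 0.024).

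Among the kinases that act on the synthase and on phosphorylase kinase, 4 of 10 genes differed between semaglutide and vehicle, against 26.5% of all genes, and 6 of 10 without mouse 13, against 37.5%. The genes that were lower encode 3 subunits of AMP-activated protein kinase, the regulatory subunits Prkag3 (log2 -1.50, limma adjusted p = 0.046), Prkag2 (-0.59, adjusted p = 0.014) and Prkab2 (-0.63, adjusted p = 0.019), and the catalytic subunit Prkaa2 was higher (0.32, adjusted p = 0.038). Prkag3, the gamma subunit of fast glycolytic muscle, had 6113 normalized counts in mouse 13, above all vehicle-treated mice (2347 to 4101), and 382 to 1382 in mice 14 to 17, and its log2 difference was -2.12 without mouse 13. The values with the ketone ester were 3720 to 4307, and the log2 difference from semaglutide was 1.83 (adjusted p = 0.045). Gsk3b, a kinase that inhibits glycogen synthase, was lower with the ketone ester than under semaglutide (-0.45, adjusted p = 0.037), and its difference between semaglutide and vehicle was 0.32 (adjusted p = 0.067). Epm2a encodes laforin, the glycogen phosphatase that is lost in Lafora disease. It fell in all 5 semaglutide-treated mice, mouse 13 included, to 1153 to 1643 normalized counts from 1977 to 2269 under vehicle (log2 -0.53, adjusted p = 0.0012), and lay between them with the ketone ester, at 1739 to 1867. None of the 4 other tested glycogen-targeting subunits of the phosphatase passed the test in any comparison, and they had means of at most 107 normalized counts in each group, far below Ppp1r3a and Ppp1r3c.

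**Figure D5:**
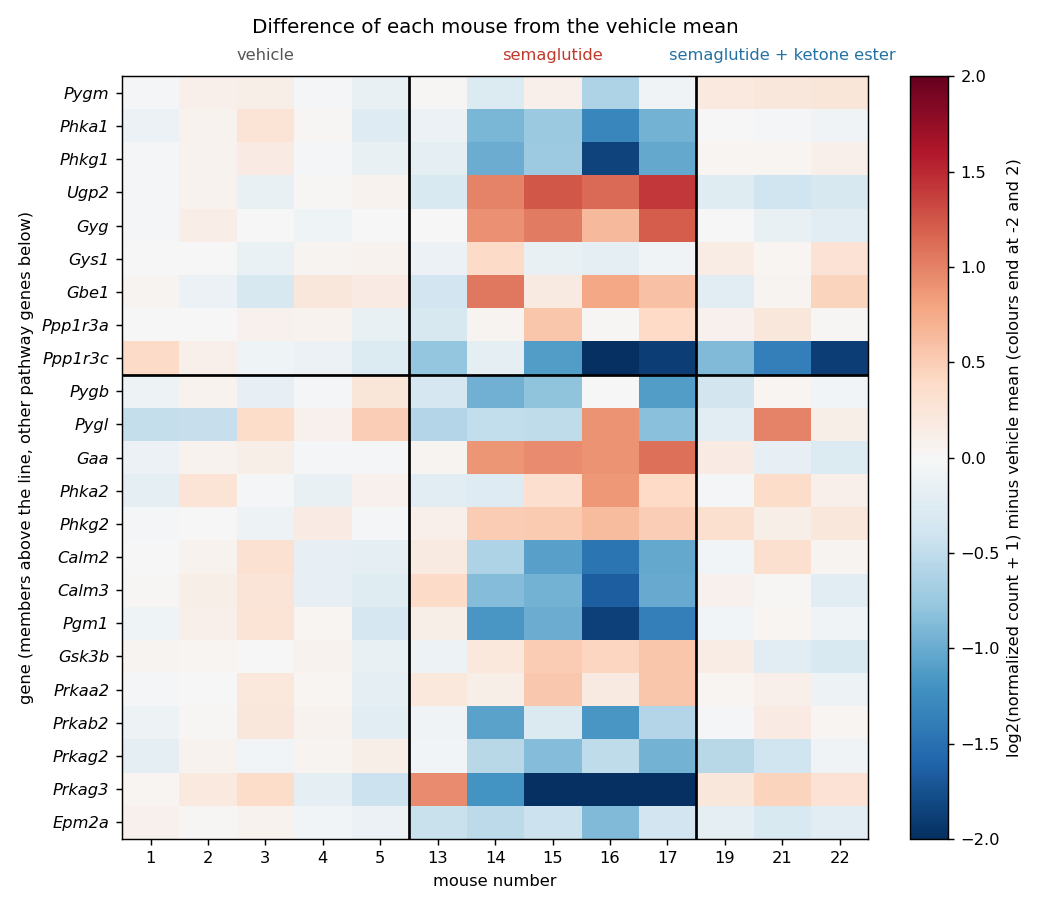
Difference of each mouse from the vehicle mean in log2(normalized count + 1), in colour, for the 9 genes (above the line) and 14 other pathway genes (below), with mice in columns by group; colours end at -2 and 2. Mouse 13 is pale where mice 14 to 17 are strongly coloured in Phka1, Phkg1, Ugp2, Gyg, Gaa and Pgm1. Ppp1r3c is blue in both treated groups except in semaglutide mouse 14, where it is pale (-0.19).

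Outside the pathway, the genes whose centred log2 profiles over the 13 mice were nearest to those of the members were found by the root mean square difference. For Pygm they were Ckm, muscle creatine kinase (0.06), and Trdn, triadin of the calcium release complex (0.08). For Ugp2 they were Cnksr1 (0.12) and Bnip3, a mitophagy receptor (0.12). Gyg was nearest to Gaa (0.11), itself a gene of the pathway list, and to Nploc4 (0.11). Phka1 was nearest to Polr3k (0.10) and Serpine2 (0.11), and Phkg1 to Actr3b (0.14) and Kmt5a (0.15). For Ppp1r3c the nearest gene was Otub2 (0.28). The nearest genes were Cox6a2 (0.10) for Gys1, Acss2 (0.15) for Gbe1 and Eya3 (0.10) for Ppp1r3a. These are descriptions over mice that share their groups.

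Markers of other cells and of fibre types were summed in each mouse. The 6 skeletal muscle genes, Acta1 and Ckm among them, summed to 2371130 to 2946280 normalized counts under vehicle, 1495160 to 2810670 under semaglutide, with mouse 13 the highest and mouse 16 the lowest, and 3072330 to 3631120 with the ketone ester. Of the 6, 1 was higher and 1 lower under semaglutide than under vehicle, 3 were higher with the ketone ester than under semaglutide, and the part of this sum in the results was not tested. The 6 fast fibre genes together had 1635180 to 1978670 normalized counts under vehicle, 960594 to 1724140 under semaglutide, with mouse 13 the highest and mouse 16 the lowest, and 2054330 to 2348770 with the ketone ester. Of these 6, 1 was lower under semaglutide than under vehicle, and 3 were higher with the ketone ester than under semaglutide. Their log2 differences between semaglutide and vehicle ran from -0.82 to 0.10. Single genes weigh heavily in the sum, with 1 value of 1254490 among the vehicle-treated mice. The 6 slow fibre genes had 6819 to 31349, 6355 to 18568 and 10344 to 20392. Of these, 1 was lower under semaglutide than under vehicle, and none differed between semaglutide + ketone ester and semaglutide. By median, the fast fibre sum was 1762410, 1293000 and 2226260 in vehicle, semaglutide and semaglutide + ketone ester, and the slow fibre sum was 24392, 12963 and 18136. By these medians both sums were lowest under semaglutide, as Phka1, Phkg1 and Pgm1 were, though in both the vehicle and semaglutide ranges overlapped. With the ketone ester the fast fibre sum exceeded that of every vehicle-treated mouse, while these 3 genes stayed within the vehicle range. The part of either sum in the differences of these genes was not tested. The 5 adipocyte genes had 3171 to 6371 under vehicle, 1747 to 16418 under semaglutide, where the highest was mouse 16, and 3538 to 4330 with the ketone ester. Without mouse 16 the calls of Phka1, Phkg1, Ugp2, Gyg and Ppp1r3c between semaglutide and vehicle were all kept. Leaving out a single mouse cannot show the part of adipocytes in these calls, which was not tested. The 3 erythroid genes had 1001 to 1723, 37 to 2326 and 2077 to 4178, and under semaglutide mouse 13 was the highest and mouse 16 the lowest. All 3 were higher with the ketone ester than under semaglutide. Between semaglutide and vehicle none of the 3 differed over all mice, and all 3 were lower under semaglutide without mouse 13. The 4 fibroblast genes had 4236 to 10077, 4484 to 5958 and 5920 to 9345, and 3 of these 4 were lower under semaglutide. The part of these cells in the results was not tested. The 4 liver genes summed to at most 44.5 normalized counts in any mouse.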

How the data were processed

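Stranded mRNA libraries of frozen gastrocnemius were aligned with DRAGEN to mm10. The authors deposited normalized counts per gene, a signal in 1 column per mouse, and the submitters' processing notes also name DESeq2. The gene annotation and counting settings are not given in the sources used here, and all libraries carry the same batch label. Every deposited value was a whole multiple of the step of its column within 0.01 read, so that whole reads were recovered for 100% of the values. No 2 libraries of a group agreed within sampling noise (chi-square per degree of freedom at least 9.27), and p-values rest on the spread between these mice. Each gene had 1 estimate of spread over all 3 groups. The intervals and p-values of semaglutide + ketone ester against vehicle therefore also carry the spread of the semaglutide-treated mice. For Ugp2 the SE in that comparison was 0.28, and 0.10 without mouse 13.

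Genes with a mean of at least 10 were kept, 12303 in number, and their deposited normalized counts were put on the log2 scale after adding 1, which understates the changes of genes with low counts. The 3 groups were fitted together with limma 3.58.1 in R 4.3.3 (lmFit, then eBayes with a mean-variance trend), and Benjamini-Hochberg adjustment covered every gene kept. An adjusted p under 0.05 was called. Alternatives were a pseudocount of 10, no filter, other scalings, sample weights, edgeR 4.0.16 and DESeq2 1.42.0 on the recovered reads, fits of only the groups compared, each mouse left out, and limma without the trend, the last chosen after seeing the data. The fits were tested on simulated data.

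The members, gene lists and motifs were chosen with earlier results of these data known. The text names the 9 members, the isoenzymes Pygb, Pygl, Gys2, Phka2 and Phkg2, up to 10 other pathway genes called in at least 1 comparison with the largest difference between semaglutide and vehicle, and the nearest genes by profile. Phkb was added after its values were seen. Some genes of the list are not reported here. Positions are from GENCODE M21 (GRCm38) and promoter windows from RefSeq (GRCm38.p6), in which all 9 members were found. The floor of 3 reads per library bears only on Gys2 and Ppp1r3g, which were not tested.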

Additional observations from a re-analysis of the deposited data

Results flagged for a closer look

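In 48 groups of 5 mice, 24 named genes in the vehicle and the semaglutide group, a single mouse far from the others was looked for with Dixon's ratio, which chance alone would exceed in about 1 of 20 groups. Semaglutide mouse 13 was far from the other 4 semaglutide-treated mice in 5 genes. Its normalized count was 6113 for Prkag3 (the others 382 to 1382), 26270 for Pgm1 (6677 to 12140), 8505 for Calm3 (2079 to 3578), 6607 for Gaa (11790 to 13627) and 10.6 for Gys2 (0 to 1.9). Semaglutide mouse 14 was far from the others in Gys1, with a normalized count of 12585 against 8496 to 9261, and semaglutide mouse 16 in Pygl, with 67.0 against 19.4 to 24.8. Vehicle mouse 4 was far from the others in Gys2, with 45.5 normalized counts against 1.1 to 13.2. No cause of these values was tested.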

How the results depend on the processing

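No paired analysis was possible because the mouse numbers of the 3 groups are all different. The count tests on the recovered reads called 3311, 2557 and 45 genes with edgeR for semaglutide against vehicle, semaglutide + ketone ester against semaglutide and semaglutide + ketone ester against vehicle, beside 3255, 2546 and 45 with limma. Over all genes, 4986, 4436 and 318 were called with sample weights. Only the 2 groups compared gave 1208 in the middle and 268 in the last comparison, DESeq2 172 and limma without the trend 29 in the last, and equal totals 4352 in the middle. With a mouse left out, counts over all genes moved by over 1.5 times in the middle comparison without mouse 13 (4119), 21 (1264) or 22 (1148), and in the last without mouse 13 (132), vehicle mouse 1 or 2 (21 each), 3 (28), or mouse 21 (5) or 22 (4). Equal totals shifted the median of all genes by 0.17, -0.24 and -0.069 on the log2 scale, with 3351 genes higher and 985 lower in the comparison of semaglutide with vehicle and 637 and 3715 in the middle one, against 1540 and 1715, and 1234 and 1312, as deposited.

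For semaglutide against vehicle, the members called stayed within 1.5 times of 5 under every alternative run. The pathway genes called were 17 with sample weights and 6 to 15 with a mouse left out, the lowest without mouse 15 or 17. For semaglutide + ketone ester against semaglutide, members called were 2 with only the 2 groups compared and 2 to 5 with a mouse left out, the lowest without mouse 22. Pathway genes called were 13 with sample weights, 1 with only the 2 groups, 4 without the trend and 1 to 12 with a mouse left out, the lowest without mouse 17, 21 or 22. For semaglutide + ketone ester against vehicle, 1 member was called with sample weights and 1 with only the 2 groups. The cause was not tested.

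Among the results recomputed, signs turned in differences that had not passed the test. For semaglutide against vehicle these were Pygm (0.0088 with equal totals, 0.062 with quantiles) and Gys1 (0.15 and 0.033, and -0.13 to 0.013 with a mouse left out). For semaglutide + ketone ester against semaglutide they were Pygm (-0.041 with quantiles), Gys1 (-0.051 with equal totals) and, with a mouse left out, Ppp1r3a (-0.14 to 0.075), Ppp1r3c (-0.42 to 0.076) and Phka2 (-0.20 to 0.082). For semaglutide + ketone ester against vehicle, where the 9 members were recomputed under every alternative, they were Phkg1 (-0.0044 with equal totals) and, with a mouse left out, Phka1 (-0.091 to 0.045) and Gbe1 (-0.084 to 0.25). Of the other named genes, for which that comparison was recomputed with a mouse left out, Pygl, Pgm1, Calm3, Gaa and Prkaa2 also turned sign.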
